A study of Mus musculus with 21 samples.

Results

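Imprinted genes were followed in gene counts from mouse pharyngeal arches 2 and 3 (PA2 and PA3), paired outgrowths on the sides of the embryonic head and neck, and from the pinna, the external ear, which develops from PA2. The set held 34 genes, chosen by symbol from a list of known mouse imprinted genes and their neighbours, out of 24594 genes in each of 2 count tables. Igf2 and Igf2r were not part of the set. All 34 symbols were found in both tables. By textbook assignment 18 of the 34 are expressed from the paternal allele, 15 from the maternal allele and 1, Gnas, from either according to the transcript, and several of the maternal genes are known as imprinted mainly in the placenta.

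An imprinted gene is transcribed mainly from the copy inherited from 1 parent, because the other copy was marked by DNA methylation or repressive chromatin in a germ line. Most imprinted genes lie in clusters under a shared imprinting control region, often with a long noncoding RNA such as H19, Kcnq1ot1, Airn or Meg3 that is made from the opposite allele to its protein-coding neighbours. Many act on growth, with paternally expressed genes often promoting it and maternally expressed genes often restraining it. The counts do not separate the parental alleles, so every value below is the sum over both copies, and imprinting itself was not measured.

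In the stage series, cells with a Wnt1::Cre;ROSA RFP reporter, which marks the neural crest lineage from its origin at the dorsal neural tube, were sorted from PA2 of E10.5 embryos and from the pinna of E12.5 and E14.5 embryos, all labelled WT. In the genotype series, PA2 and PA3 of E10.5 embryos were dissected from WT embryos and from embryos homozygous for a CRISPR deletion of HIRE1 (HIRE1del/del, here HIRE1del), a distal enhancer region of Hoxa2 on chromosome 6, with no sort stated. Each of the 7 groups had 3 libraries, described in the labels as biological replicates without naming litters, so that p-values measure the spread between these libraries. Mice had a mixed background of C57Bl/6J and CD1, and pools held embryos of either sex. E10.5 and E12.5 tissue was digested with trypsin and E14.5 tissue with papain, so stage and digestion cannot be told apart between E14.5 and the earlier stages.

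Libraries held 25.8 to 32.2 M counts, except the 3 E14.5 libraries with 47.5 to 49.1 M. Counts of Hoxa2, the gene that HIRE1 serves, matched the genotype labels, at 1896 to 2736 in PA2 WT against 122 to 192 in PA2 HIRE1del, and at 1465 to 2023 in PA3 WT against 634 to 733 in PA3 HIRE1del. The labels call every library cranial neural crest cells. In the sorted libraries, 10 crest mesenchyme markers summed to 1941 to 4187 CPM (counts scaled to the library total, here with TMM factors) and 6 red blood cell markers to at most 11.6 CPM. In the dissected arches the same red blood cell markers summed to 1526 to 24430 CPM, and epithelial and endothelial markers were present, so these libraries held other cell types beside crest. In such bulk samples, fewer cells of a type and less RNA per cell cannot be told apart.

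The sequences shown first belong to the members on which the results turn. Promoter windows of RefSeq, from 250 bases before to 50 bases after a gene start on GRCm38.p6, were matched for 27 of the 34 members. Windows are given for the paired genes Peg3 and Usp29, which lie head to head on chromosome 7, and for Mest and Plagl1. The latter are from the 6 members that fell and then rose across the stages. Windows of Asb4 and Rasgrf1 are also given, of which the first fell to near 0 counts and the second started there. Capitals mark TGCCGC or its other strand GCGGCA, letters that were searched on both strands because they are the core of the ZFP57 motif, a zinc finger protein that keeps methylation on imprinted alleles. The Peg3 window is chr7:6730370-6730669 on the minus strand, and the Usp29 window is chr7:6730333-6730632 on the plus strand, so the pair largely covers the same stretch read from opposite ends. The Mest window is chr6:30737800-30738099 (plus), that of Plagl1 chr10:13090582-13090881 (plus), that of Asb4 chr6:5383136-5383435 (plus) and that of Rasgrf1 chr9:89909525-89909824 (plus).
Peg3: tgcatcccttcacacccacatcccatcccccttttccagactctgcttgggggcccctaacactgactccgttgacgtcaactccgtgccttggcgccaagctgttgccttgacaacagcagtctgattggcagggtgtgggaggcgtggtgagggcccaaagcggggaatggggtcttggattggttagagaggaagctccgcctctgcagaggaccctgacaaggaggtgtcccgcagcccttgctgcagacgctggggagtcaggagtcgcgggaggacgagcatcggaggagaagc
Usp29: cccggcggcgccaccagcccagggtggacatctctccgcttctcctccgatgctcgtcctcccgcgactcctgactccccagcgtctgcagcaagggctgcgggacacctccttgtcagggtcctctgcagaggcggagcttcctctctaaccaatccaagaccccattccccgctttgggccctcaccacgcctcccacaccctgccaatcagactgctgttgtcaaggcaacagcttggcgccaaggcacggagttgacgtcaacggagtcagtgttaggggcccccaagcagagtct
Mest: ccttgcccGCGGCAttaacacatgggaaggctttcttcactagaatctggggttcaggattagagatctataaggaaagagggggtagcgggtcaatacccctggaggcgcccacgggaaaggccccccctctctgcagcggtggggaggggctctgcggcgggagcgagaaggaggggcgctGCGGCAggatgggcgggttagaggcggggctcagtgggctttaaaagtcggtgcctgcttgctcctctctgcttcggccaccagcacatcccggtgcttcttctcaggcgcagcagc
Plagl1: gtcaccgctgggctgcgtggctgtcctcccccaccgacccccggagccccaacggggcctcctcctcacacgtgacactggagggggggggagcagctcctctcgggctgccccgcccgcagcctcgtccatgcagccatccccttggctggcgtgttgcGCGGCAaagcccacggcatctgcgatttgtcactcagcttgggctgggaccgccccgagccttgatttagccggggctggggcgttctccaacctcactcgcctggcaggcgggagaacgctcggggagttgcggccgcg
Asb4: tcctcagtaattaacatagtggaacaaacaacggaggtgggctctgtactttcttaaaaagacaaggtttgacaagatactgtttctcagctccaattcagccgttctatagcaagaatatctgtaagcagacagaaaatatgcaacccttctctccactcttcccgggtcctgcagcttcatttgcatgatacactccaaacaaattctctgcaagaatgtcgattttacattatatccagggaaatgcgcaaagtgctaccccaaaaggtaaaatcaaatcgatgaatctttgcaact
Rasgrf1: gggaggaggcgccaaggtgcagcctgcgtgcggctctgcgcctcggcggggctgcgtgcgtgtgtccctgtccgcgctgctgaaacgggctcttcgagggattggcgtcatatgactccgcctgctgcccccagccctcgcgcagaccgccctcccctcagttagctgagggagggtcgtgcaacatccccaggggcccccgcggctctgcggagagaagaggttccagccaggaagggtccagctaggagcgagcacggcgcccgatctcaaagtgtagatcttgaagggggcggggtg

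The letters TGCCGC stood in windows of 7 members, Mest, Zim1, Snrpn, Nnat, Plagl1, Grb10 and Meg3, and in 8 of the members' 39 windows (20.5%) against 11.6% of all 32851 windows. The 8 include overlapping windows of Mest, chr6:30737800-30738099 and chr6:30737803-30738102. The printed Mest window held 2 sites and the Plagl1 window 1. Windows of Ndn, Magel2 and Gnas, which also fell and then rose, held none. The other 4 printed windows held none, and of the printed windows that of Asb4 had the fewest CpG dinucleotides, with 6, against 13 in that of Peg3, 17 in those of Usp29 and Mest, and 26 in those of Plagl1 and Rasgrf1. The median over the members' windows was 13 CpG and 57.3% G+C, against 7 CpG and 52.7% over all windows. A match describes letters in a window and is not a bound site.

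Several noncoding members contain hairpins of microRNAs, among them Meg3 and Rian, and 2 hosts, H19 and Mirg, are considered here. H19 contains the hairpin of miR-675, and Mirg lies at the end of the chromosome 12 microRNA cluster, whose hairpins have 106 mature miRNAs in RefSeq with 97 distinct seeds. Seeds (bases 2 to 8, in capitals) are the stretch by which a miRNA mainly selects its targets, and 9 of the 97 are carried by a pair of miRNAs of the cluster. The H19 pair and 4 cluster miRNAs that share seeds are shown because H19 was the most abundant member and Mirg rose at both stage steps. Of these 4, only miR-410-5p comes from a hairpin inside Mirg. The hairpins of miR-379, miR-1193 and miR-494 lie before it.
mmu-miR-675-5p: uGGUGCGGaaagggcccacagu
mmu-miR-675-3p: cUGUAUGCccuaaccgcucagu
mmu-miR-379-5p: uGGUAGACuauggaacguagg
mmu-miR-1193-5p: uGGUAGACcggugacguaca
mmu-miR-494-5p: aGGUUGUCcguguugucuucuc
mmu-miR-410-5p: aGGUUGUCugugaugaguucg

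Together the 34 genes took 1.23 to 1.61% of the counts of a library. Per kilobase of exon, H19, a maternally expressed noncoding RNA, had the highest level of the set in all 7 groups. Its mean was 1682 CPM per kb in E10.5 PA2 crest, 1125 in E12.5 pinna and 1633 in E14.5 pinna. H19 ranked between 3rd and 12th among all genes by raw count. Mest, a putative hydrolase of mesoderm, came next at E10.5 (542 CPM per kb in sorted PA2), while Nnat, a small membrane proteolipid, came next at E12.5 (438) and Cdkn1c, an inhibitor of cyclin-dependent kinases, at E14.5 (408). At the other end, Dlk1, Rtl1, Rian and Meg3 of the Dlk1-Dio3 domain were listed at 0.141 CPM per kb or less in every group. These listed values are not shown to be low expression. In the stage series the Meg3 row averaged 15.2 counts, against 254.0 for Mir1906-1, a microRNA hairpin row in an exon of Meg3. Replicates of the members that passed the filter varied about as much as other genes, with a median coefficient of variation of 5.49 to 8.44% over the groups against 6.81 to 8.06% over all genes kept.

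The stage series compares crest of PA2 at E10.5 with crest of the pinna at E12.5 and E14.5. Per the paper, PA2 crest also forms middle ear and hyoid structures. Stage and the part dissected thus cannot be told apart between E10.5 and the pinna stages. A gene was tested if it had at least 1 CPM in at least 2 of the 9 libraries, which kept 29 members. Phlda2, Dlk1, Rtl1, Meg3 and Rian were not tested. Rasgrf1, Ascl2 and Slc22a18 passed only through their E14.5 libraries and thus had to be high there, so they are left out of the counts that follow and their values are a description. At an adjusted p under 0.05 (edgeR quasi-likelihood test, Benjamini-Hochberg over 13438 genes), 24 of the other 26 tested members changed from E10.5 to E12.5, 11 up and 13 down, where 68.8% of all genes tested changed (35% up, 33.7% down). From E12.5 to E14.5, 22 changed (12 up, 10 down) against 65.7% of all genes (32.6% up, 33.1% down). Between E10.5 and E14.5, 24 changed (13 up, 11 down) against 82% (42% up, 40% down). Over the 12856 genes that did not pass through 1 stage alone, the shares called were 69%, 65.1% and 81.8%. The median absolute log2 fold change of the 26 members was 0.87 against 0.45 for those genes at the first step, 0.60 against 0.38 at the second and 1.39 against 0.73 over both. The replicate ranges of the stages were apart for 24, 23 and 23 of the 26 members in the 3 comparisons. The shares were 74.5%, 69.6% and 84% of all genes, and 74.8%, 69.1% and 83.8% of the 12856 genes. Changes of at least 2-fold were called for 11 members at the first step, for 6 at the second and for 15 over both. The shares were 21.6%, 19.7% and 39.3% of all genes, and 19.8%, 17.1% and 37.2% of the 12856 genes.

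**Figure D1:**
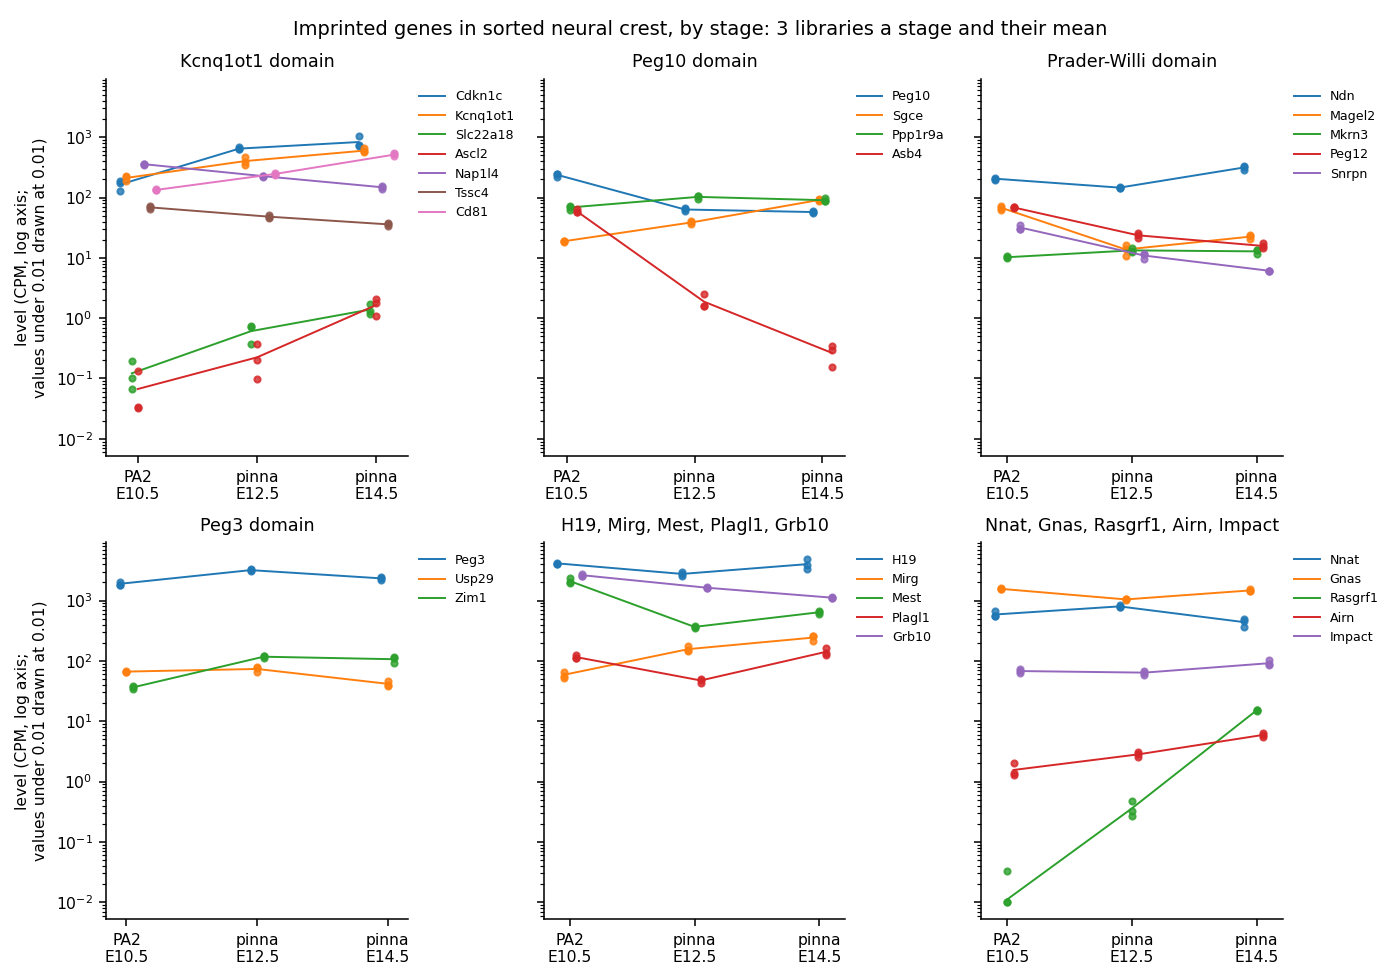
Level of the 29 tested imprinted genes in each library of the sorted stage series, in CPM on a log axis, with points for the 3 libraries of a stage and a line through their means. H19 stays between 2576 and 4817 CPM, while Asb4 falls from 56.5 to 64.4 CPM at E10.5 to under 0.4 CPM at E14.5 and Rasgrf1 rises to about 15 CPM.

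Both parental classes held genes that rose and genes that fell. Between E10.5 and E14.5, 5 of 10 maternally expressed members rose and 4 fell, and 8 of 15 paternally expressed members rose and 7 fell. Of all genes tested, 42% rose and 40% fell. Genes of 1 domain also moved apart: 3 of 5 members of the Kcnq1ot1 domain rose and 2 fell, 2 of 3 rose in the Peg3 domain, 2 of 5 in the Prader-Willi domain and 2 of 4 in the Peg10 domain. Over the 2 steps, 5 members rose at each (Kcnq1ot1, Cd81, Mirg, Sgce and Airn), 6 fell at each (Nap1l4, Tssc4, Peg12, Snrpn, Asb4 and Grb10) and 6 fell and then rose (H19, Ndn, Magel2, Mest, Gnas and Plagl1). Peg3, Ppp1r9a and Nnat rose and then fell. Cdkn1c, Zim1 and Mkrn3 rose at the first step alone, Peg10 fell at the first step alone, Impact rose at the second step alone and Usp29 fell at the second step alone, where a step without a call is not shown to lack a change. With 68.8% and 65.7% of all genes called at the 2 steps, such courses describe the members. The share of all genes with each course was not counted.

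**Figure D2:**
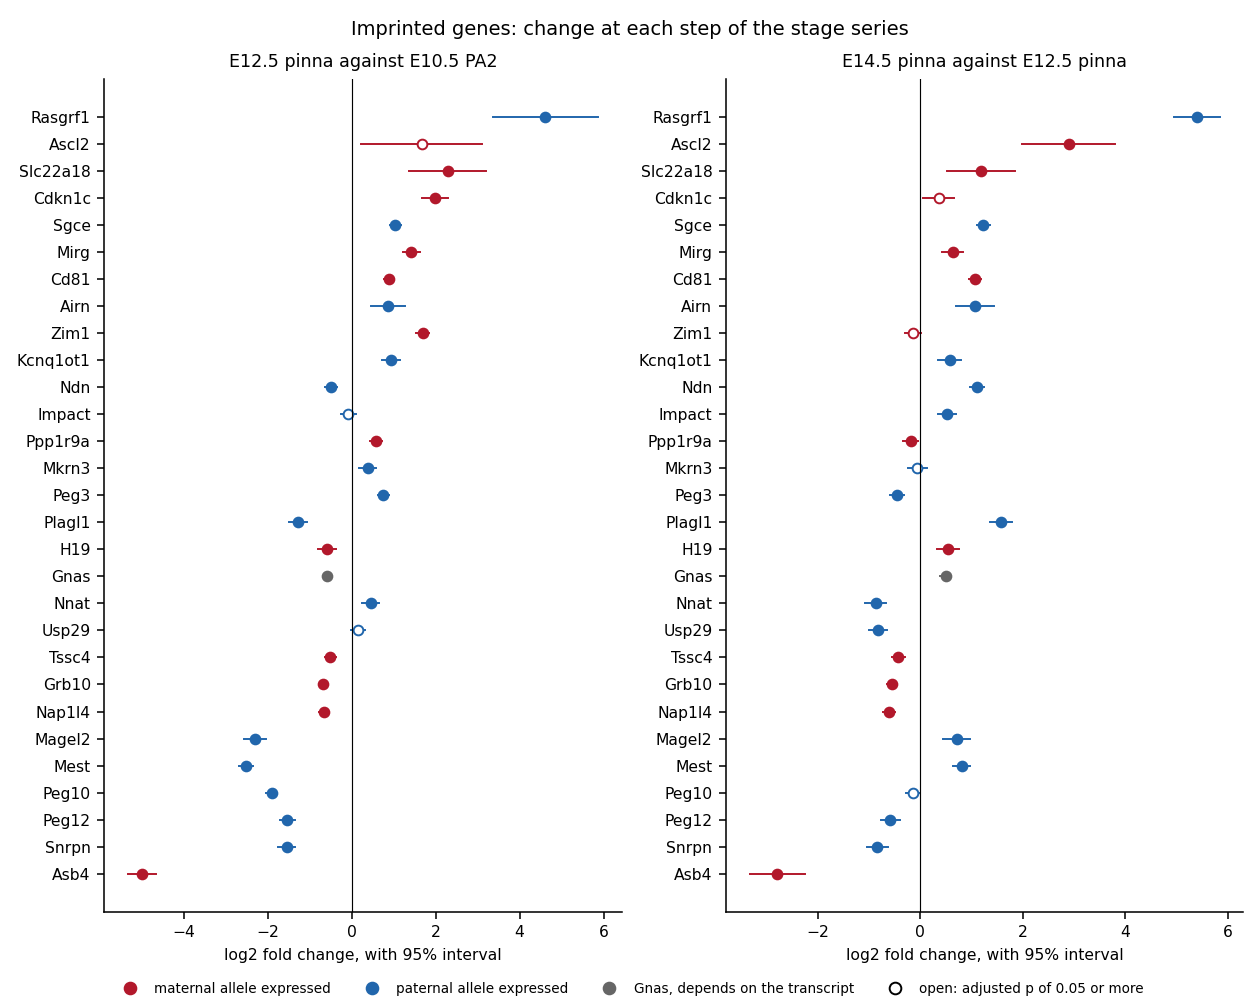
Log2 fold change of the 29 tested imprinted genes from E10.5 to E12.5 (left) and from E12.5 to E14.5 (right) with 95% intervals, ordered by the change over both steps and colored by the allele known to be expressed. Red and blue are mixed along the order, from Asb4 at -5.00 and -2.78 to Rasgrf1. Open points have an adjusted p of 0.05 or more. Rasgrf1, Ascl2 and Slc22a18 passed the filter through their E14.5 libraries alone. Their points, filled or open, are a description and not a test.

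In the Kcnq1ot1 domain (distal chromosome 7), Cdkn1c, which stops the cell cycle and is known to restrain embryonic growth, rose the most at the first step among members that were above 1 CPM at each stage. It was at 129, 172 and 190 CPM in E10.5 PA2, at 677, 633 and 631 CPM in E12.5 pinna and at 721, 732 and 1042 CPM in E14.5 pinna. Every pinna library was above every PA2 library, and replicate 3 of E14.5 stood above the rest. The gain at E12.5 was 3.95-fold (log2 fold change 1.98 ± 0.16 (SE), adjusted p = 8.98e-07, edgeR), and the further gain to E14.5 was 1.28-fold and missed the threshold (adjusted p = 0.0571). Cdkn1c lies at chr7:143458339-143461050.

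Kcnq1ot1, the paternal noncoding RNA whose transcription silences the domain in cis, also rose, from 188, 225 and 220 CPM to 471, 392 and 343 CPM and then to 558, 656 and 584 CPM. The 3 stages did not overlap. The steps were 1.91-fold (adjusted p = 2.41e-05) and 1.49-fold (adjusted p = 0.000941). Cd81, a tetraspanin of the cell surface at the edge of the domain, rose 1.84-fold and 2.09-fold, with means of 133, 246 and 515 CPM and a total of 3.86-fold (adjusted p = 1.82e-10). Nap1l4, a histone chaperone, and Tssc4, a factor of spliceosome assembly, went the other way, being 2.42-fold and 1.92-fold lower at E14.5 than at E10.5 (adjusted p = 4.11e-09 and 8.64e-08). Tssc4 shares 220 exonic bases with Trpm5 on the opposite strand, whose counts went from 2 to 7 at E10.5 to 10908 to 11731 at E14.5.

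Slc22a18, a transporter, and Ascl2, a transcription factor of the placenta, were near the lower limit. Slc22a18 was at 0.0669 to 0.196 CPM at E10.5, 0.374 to 0.751 at E12.5 and 1.18 to 1.72 at E14.5. Ascl2 was at 0.0327 to 0.134 CPM, 0.098 to 0.371 and 1.07 to 2.09 CPM. For both genes the E10.5 and E14.5 ranges were apart, as the filter that admitted them through E14.5 alone would set, and no test of them is given. Phlda2, a regulator of placental growth, had 0 to 19 counts per library across the 3 stages.

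In the Peg10 domain (proximal chromosome 6), Asb4, a maternally expressed adaptor of ubiquitin ligases at chr6:5383386-5433022, had the largest fall of the set. Its counts were 1689, 1687 and 1972 in E10.5 PA2, 67, 48 and 46 in E12.5 pinna and 7, 14 and 16 in E14.5 pinna, although the last libraries were deeper. No stage overlapped another. Asb4 was 32-fold lower at E12.5 than at E10.5 (log2 fold change -5.00 ± 0.17, adjusted p = 1.8e-09) and 220-fold lower at E14.5 (-7.78 ± 0.21, adjusted p = 6.58e-11).

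Peg10, a retrotransposon-derived gene needed in the placenta, fell from 249, 217 and 245 CPM at E10.5 to 63.5, 60.2 and 66.1 CPM at E12.5, a 3.75-fold difference (adjusted p = 2.42e-09). It was at 59.1, 55.5 and 57.8 CPM at E14.5, with an adjusted p of 0.0846 for the second step. Sgce, which encodes epsilon-sarcoglycan and starts beside Peg10 on the other strand, moved the opposite way: 18.4, 19 and 19 CPM, then 39.4, 40.3 and 36.2 CPM, then 91.3, 86.5 and 95 CPM. Sgce was 4.83-fold higher at E14.5 than at E10.5 (adjusted p = 1.14e-10). The pair, both paternally expressed, thus went in opposite directions with no overlap between E10.5 and E14.5 in either gene. Ppp1r9a, an actin-binding scaffold of neurons, was 1.32-fold higher at E14.5 than at E10.5 (adjusted p = 0.000327). Its fall of 1.14-fold at the second step (adjusted p = 0.042) was lost without E12.5 replicate 1 or 2 or E14.5 replicate 1 or 3 (adjusted p = 0.104 to 0.128).

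Mest fell and partly came back. It was at 2401, 1996 and 1922 CPM in E10.5 PA2, 373, 370 and 357 CPM in E12.5 pinna and 682, 596 and 645 CPM in E14.5 pinna. All E10.5 libraries lay far above the rest, and the pinna stages did not overlap. The fall was 5.75-fold (adjusted p = 2.21e-09) and the rise 1.75-fold (adjusted p = 8.65e-06). Mest shares 912 exonic bases with Copg2 on the opposite strand, which had 2246 to 3214 counts per library in this series.

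Plagl1, a zinc finger transcription factor of growth control, followed the same course from a lower level. Its values were 127, 110 and 111 CPM, then 50.8, 47.7 and 43.7 CPM, then 135, 123 and 165 CPM. The E12.5 libraries were below all others and the E10.5 and E14.5 ranges overlapped. The steps were 2.44-fold down (adjusted p = 1.2e-06) and 2.97-fold up (adjusted p = 3.38e-07). The difference between E10.5 and E14.5 (1.22-fold, adjusted p = 0.0256) lost its call without E10.5 replicate 2 or 3 or E14.5 replicate 3 (0.0818 to 0.107) and with total counts in place of TMM (0.0647). H19 took this course with smaller steps, 4214, 4098 and 4104 CPM, then 2789, 2937 and 2576 CPM, then 3884, 3349 and 4817 CPM, and did not differ significantly between E10.5 and E14.5 (log2 fold change -0.04 ± 0.11, adjusted p = 0.722). Gnas, the stimulatory G protein alpha subunit locus, was 1.5-fold lower at E12.5 than at E10.5 and 1.41-fold higher again at E14.5 (adjusted p = 2.79e-06 and 1.18e-05).

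The 5 members of the Prader-Willi domain (central chromosome 7), all paternally expressed, did not move as 1 group. Magel2, a partner of ubiquitin ligases in endosomal recycling, was at 66.8, 63 and 73.7 CPM at E10.5, 14.26, 10.55 and 16.45 CPM at E12.5 and 22.6, 20.7 and 24.1 CPM at E14.5. It was thus lowest at E12.5, 4.94-fold below E10.5 (adjusted p = 8.95e-08). Ndn, a growth-restraining protein of the same MAGE family, was at 206, 212 and 197 CPM, then 150, 144 and 143 CPM, then 326, 283 and 337 CPM, and so ended above its starting level, by 1.54-fold (adjusted p = 6.01e-06).

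Peg12, a GSK3-binding protein related to the Frat family, was 4.35-fold lower at E14.5 than at E10.5 and Snrpn, a core protein of splicing complexes, 5.23-fold lower (adjusted p = 2.11e-09 and 1.93e-09). The Snrpn row shares its reads with that of Snurf, which is read from the same transcript, so the 2 rows cannot be told apart. Mkrn3, a ubiquitin ligase known from the timing of puberty, was at 9.77 to 10.6 CPM at E10.5 and 11.7 to 13.4 CPM at E14.5, a 1.25-fold difference (adjusted p = 0.01).

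In the Peg3 domain (proximal chromosome 7), Peg3, a large zinc finger protein, was at 2054, 1798 and 1843 CPM at E10.5, 3039, 3179 and 3381 CPM at E12.5 and 2356, 2445 and 2207 CPM at E14.5. It peaked at E12.5, with no overlap between stages. Zim1, its maternally expressed neighbour, rose 3.22-fold at E12.5, from 33.7 to 38.1 CPM to 113 to 120 CPM (adjusted p = 2.41e-08). Usp29, a deubiquitinase read from the shared start region shown above, was at 65.7 to 67.4 CPM, 66.2 to 79.1 CPM and 38 to 47.1 CPM. Its fall at the second step was 1.76-fold (adjusted p = 1.15e-05), and Peg3 also fell at that step. At the first step Peg3 was called higher, while Usp29 had a log2 fold change of 0.14 (95% interval -0.03 to 0.32, adjusted p = 0.166).

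Rasgrf1, an exchange factor that activates Ras, was nearly absent at the start. Its counts were 1, 0 and 0 at E10.5, 13, 10 and 8 at E12.5 and 669, 731 and 709 at E14.5. The ratio of the summed counts per depth of E14.5 to E10.5 was 1301, and that of E12.5 to E10.5 was 33.2. Both ratios rest on a single count at E10.5 and give no firm size. Every E14.5 library was above every E12.5 library, and as the gene passed the filter through E14.5 alone no test of it is given.

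Among the remaining genes with a locus of their own, Grb10, an adaptor that dampens insulin and IGF receptor signaling, fell at each step, from 2758, 2599 and 2548 CPM to 1611, 1641 and 1649 CPM and to 1090, 1144 and 1123 CPM. It was 2.35-fold lower at E14.5 than at E10.5 (adjusted p = 1.73e-09). Airn, the antisense noncoding RNA of the chromosome 17 cluster, was low, at 1.27 to 2.02 CPM, 2.51 to 3.06 CPM and 5.48 to 6.48 CPM, and rose 3.81-fold over both steps (adjusted p = 3.15e-06). Nnat was 1.36-fold higher at E12.5 than at E10.5 and 1.83-fold lower at E14.5 than at E12.5 (adjusted p = 0.00307 and 3.15e-05). Impact, a regulator of translation under amino acid stress, was 1.43-fold higher at E14.5 than at E12.5 (adjusted p = 0.000441).

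The Dlk1-Dio3 domain (chromosome 12) was seen almost only through Mirg, a maternally expressed noncoding RNA at chr12:109729764-109749460. Mirg was at 53, 56.9 and 66.2 CPM at E10.5, 174, 152 and 145 CPM at E12.5 and 214, 261 and 256 CPM at E14.5. The stages did not overlap, and the gain was 2.67-fold and then 1.55-fold (adjusted p = 4.99e-07 and 0.000234). In the same libraries Dlk1, a membrane protein of the Notch ligand family, and Rtl1, a retrotransposon-derived gene of the placenta, were listed at 0 throughout. Meg3, the long noncoding RNA of the domain, was listed at 3, 1 and 4 counts, then 4, 4 and 9, then 24, 27 and 61. Rian, a host of small nucleolar RNAs, was listed at 0 except for 1 count in an E14.5 library.

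Rows of microRNA hairpins in the domain were counted too, from long RNA and not from mature miRNAs. The 40 hairpin rows on the plus strand between Dlk1 and Mirg were summed without Mir1906-1. They had 81, 124 and 119 counts at E10.5, 317, 298 and 268 at E12.5 and 526, 798 and 701 at E14.5. Plus-strand rows from Mir770 to Mir882, which include those inside Meg3, Rtl1 and Rian, were at 0 throughout the series. The sum thus came from the rows from Mir379 to Mir539, next to Mirg. The 14 rows inside Mirg, of which 9 share exonic bases with it, summed to 361, 403 and 453, then 1090, 1002 and 1013, then 2282, 2737 and 2691 counts. Of these rows, Mir3072 alone held 291 to 1856 counts per library. The sum before Mirg and the sum inside Mirg were each higher at E12.5 than at E10.5 in every library. As the E14.5 libraries were deeper, CPM values are given for the second step. Before Mirg the sums were 11.77, 9.73 and 9.109 CPM at E12.5 and 11.59, 16.78 and 15.35 CPM at E14.5, which overlap. Inside Mirg they were 40.48, 32.72 and 34.43 CPM and then 50.26, 57.54 and 58.91 CPM, with the stages apart. The hairpin row Mir1906-1, which lies in an exon of Meg3, had 37 to 68, 201 to 222 and 386 to 591 counts, above the count of the whole Meg3 row in each library. Its CPM ranges at E12.5 and E14.5, 6.563 to 8.244 and 8.115 to 12.94, overlapped.

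Other genes that every cell uses were also listed near 0, so a row at 0 is given here as listed and not as absence of the RNA. Psmb6, a catalytic subunit of the proteasome, had 0 counts in every stage library and at most 1 in a genotype library, as 1 of 20 proteasome subunits examined. Hnrnpu and Eif5a had 0 to 2 counts in the stage libraries and 1460 to 2612 in the genotype libraries. These 3 genes were chosen after their values were seen.

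**Figure D3:**
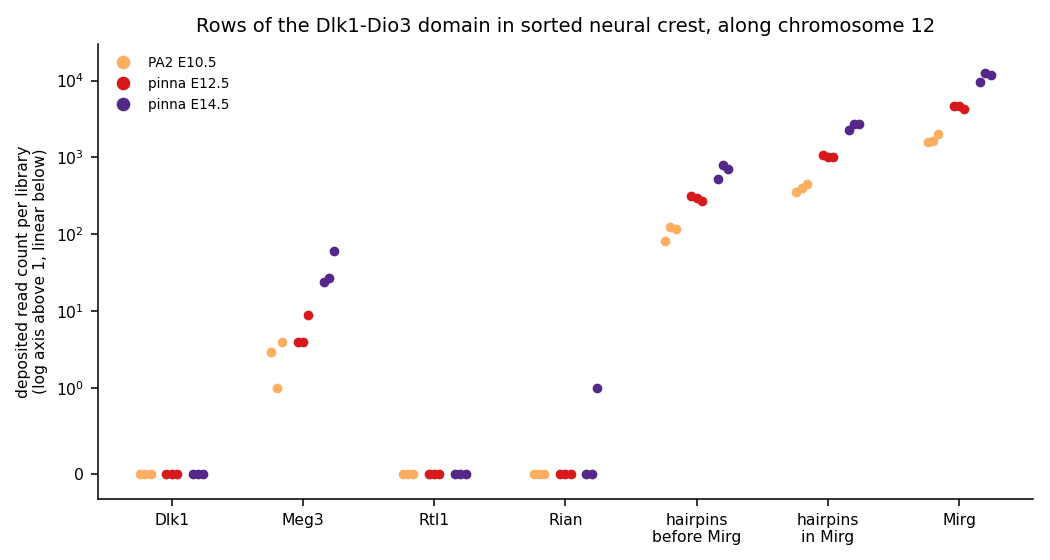
Raw counts in each library of the stage series for the rows of the Dlk1-Dio3 domain. Plus-strand microRNA hairpin rows before and inside Mirg were summed, without Mir1906-1. Dlk1, Rtl1 and Rian lie at 0 or 1 count and Meg3 at 1 to 61, while the hairpins before Mirg reach 798 and Mirg 12421 counts. Counts are not scaled for depth, and the E14.5 libraries were the deepest.

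Markers of other cells and of the cell cycle moved with stage in the sorted libraries. Summed markers of cycling cells went from 3191 to 3594 CPM at E10.5 to 1715 to 1858 CPM and 751 to 1171 CPM. Those of pigment cells, a crest derivative, went from 5.89 to 7.76 CPM to 29.1 to 41.3 CPM and 324 to 368 CPM, those of Schwann cells and glia were at 11.8 to 14.3, 12.6 to 13.8 and 39.7 to 52.3 CPM, and those of endothelium were at 7.43 to 10.4, 20.3 to 29.4 and 112 to 175 CPM. Cartilage markers fell from 1660 to 1704 CPM to 666 to 709 CPM and 336 to 371 CPM. The part of these shifts in the members' changes was not tested.

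Of 26 listed makers and keepers of imprints 21 were tested in the same libraries, and 5 rose and 10 fell at the first step, 3 rose and 13 fell at the second, and 4 rose and 14 fell over both. The shares called, 71.4%, 76.2% and 85.7%, stood near the 68.8%, 65.7% and 82% of all genes, and over both steps 66.7% of the list fell against 40% of all genes. Dnmt1, which copies DNA methylation at replication, went from 955 ± 21.4 (SD, n = 3) CPM to 495 ± 14.1 and 326 ± 10.1 CPM, and Uhrf1, which guides it to replicated DNA, from 610 ± 9.31 CPM to 239 ± 8.59 and 104 ± 5.24 CPM. Trim28, the corepressor that ZFP57 recruits, fell by 1.64 on the log2 scale over both steps (adjusted p = 3.33e-10). Tet2, an enzyme that oxidizes 5-methylcytosine, rose by 1.05 (adjusted p = 7.38e-09). How far the fall in cycling cell markers enters the changes of this list was not tested. Of 46 further imprinted or neighbouring genes 28 were tested, of which 17 rose and 8 fell between E10.5 and E14.5, a share of 89.3% near the 82% of all genes. By direction, 60.7% of the 28 rose and 28.6% fell, against 42% and 40% of all genes. Pon3 passed the filter through 1 stage alone, and without it 16 rose and 8 fell. The matrix protein Dcn had a log2 fold change of 7.73 and the decarboxylase Ddc of -4.55.

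The arches were compared at E10.5 in the genotype table, in which 26 members passed the filter. Phlda2, Slc22a18, Ascl2, Dlk1, Rtl1, Meg3, Rian and Rasgrf1 were not tested. In WT, 14 of the 26 differed between PA3 and PA2, 9 higher and 5 lower in PA3, where 36.5% of all 14383 genes differed (19.1% higher, 17.4% lower). In HIRE1del, 13 differed (8 higher, 5 lower) against 33.4% of all genes (18.7% higher, 14.7% lower). None of these differences reached 2-fold, a size called for 8.34% of all genes in WT and 8.19% in HIRE1del. Of the calls, 10 were shared in the same direction, which is 71.4% of the WT calls and 76.9% of the HIRE1del calls. The shared part over all genes was not counted. The replicate ranges of PA2 and PA3 were apart for 16 members in WT (49.9% of all genes) and for 17 in HIRE1del (45%).

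**Figure D4:**
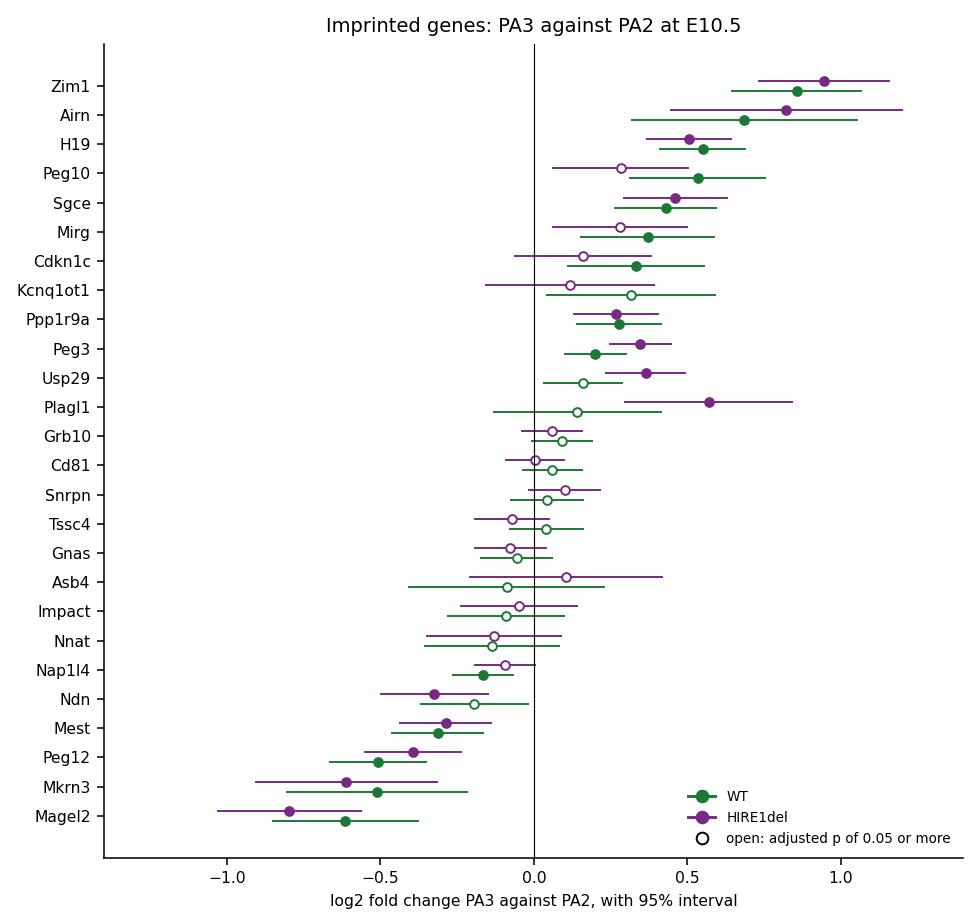
Log2 fold change of PA3 against PA2 at E10.5 for the 26 tested imprinted genes, with 95% intervals, in WT (green) and HIRE1del (purple), open where the adjusted p was 0.05 or more. Zim1 (0.86 and 0.95), Airn and H19 stand at the top and Magel2 (-0.61 and -0.80), Mkrn3 and Peg12 at the bottom in both genotypes.

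The members higher in PA3 were led by Zim1, at 19, 23.7 and 23.9 CPM in PA2 WT and 37.8, 43 and 40.1 CPM in PA3 WT. In HIRE1del it was at 18.9, 20.9 and 21.7 CPM in PA2 and 39.7, 34.4 and 44.3 CPM in PA3. The arches did not overlap in either genotype, and Zim1 was 1.81-fold higher in PA3 of WT and 1.93-fold higher in PA3 of HIRE1del (adjusted p = 5.33e-05 and 2.64e-05, edgeR). H19 was at 4006, 4473 and 4149 CPM in PA2 WT and 5970, 6418 and 6100 CPM in PA3 WT, 1.46-fold higher (adjusted p = 6.35e-05), and 1.42-fold higher in PA3 of HIRE1del (adjusted p = 0.000134). Airn was 1.61-fold and 1.77-fold higher (adjusted p = 0.0116 and 0.00521), Sgce 1.35-fold and 1.38-fold (adjusted p = 0.00153 and 0.00117), Peg3 1.15-fold and 1.27-fold (adjusted p = 0.00783 and 0.000209), and Ppp1r9a 1.21-fold and 1.2-fold (adjusted p = 0.00742 and 0.00988).

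The members lower in PA3 came mostly from the Prader-Willi domain. Magel2 was at 45.1, 49 and 51.6 CPM in PA2 WT and 28.4, 32.5 and 34.1 CPM in PA3 WT. In HIRE1del it was at 67.3, 82.4 and 55.8 CPM in PA2 and 42.1, 36.3 and 39.8 CPM in PA3. PA3 was thus below PA2 in every library of a genotype, by 1.53-fold and 1.74-fold (adjusted p = 0.00155 and 0.000235). Peg12 was 1.42-fold and 1.31-fold lower and Mkrn3 1.43-fold and 1.53-fold lower (adjusted p = 0.000329, 0.00205, 0.0167 and 0.00722), and Ndn was called in HIRE1del alone (1.25-fold lower, adjusted p = 0.0128, and 0.0519 without PA3 HIRE1del replicate 2). The call of Mkrn3 in WT was lost without PA2 WT replicate 1 or PA3 WT replicate 1 (adjusted p = 0.0685 and 0.0722). Snrpn, the remaining member of the domain, was at 40.7 to 44.1 CPM in PA2 WT and 43.4 to 44.6 CPM in PA3 WT (adjusted p = 0.607). Mest was 1.24-fold lower in PA3 of WT and 1.22-fold lower in PA3 of HIRE1del (adjusted p = 0.00572 and 0.0102).

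Further members were called in 1 genotype. Peg10 (1.45-fold), Mirg (1.29-fold) and Cdkn1c (1.26-fold) were higher in PA3 of WT with adjusted p of 0.00249, 0.019 and 0.0339, and Nap1l4 was lower (log2 fold change -0.16, adjusted p = 0.0193). Plagl1 (1.48-fold) and Usp29 (1.29-fold) were higher in PA3 of HIRE1del with adjusted p of 0.00692 and 0.000927. The test of the difference between genotypes called none of the 26 members, where it called 0.0487% of all genes, so these genes are not shown to differ between arches in 1 genotype more than in the other. Without PA2 WT replicate 1, 2 or 3, or PA3 WT replicate 2 or 3, Cdkn1c was not called (adjusted p = 0.0558 to 0.118). Nap1l4 was not called without PA2 WT replicate 1 or 3 or PA3 WT replicate 1 or 2 (0.0562 to 0.0839), nor Mirg without PA2 WT replicate 1 or PA3 WT replicate 2 (0.0794 and 0.0728). With the PA2 and PA3 libraries of the same genotype and number paired as a block, Peg10 and Mirg were also called in HIRE1del (adjusted p = 0.00723 and 0.0343 against 0.0684 and 0.0693 without it).

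Markers of other cell types differed between the arches. In WT, red blood cell markers summed to 1526 to 2396 CPM in PA2 and 12356 to 24180 CPM in PA3, epithelial markers to 246 to 280 and 520 to 669 CPM, and neuronal markers to 76.7 to 79.1 and 155 to 215 CPM. Crest mesenchyme markers summed to 1239 to 1407 CPM in PA2 WT and 807 to 1024 CPM in PA3 WT. In HIRE1del, red blood cell markers summed to 1581 to 3308 CPM in PA2 and 14407 to 24430 CPM in PA3. The part of these markers in the members' arch differences was not tested. Replicate 1 of PA3 WT also held 430 CPM of liver and yolk sac markers against 63.1 and 28.7 CPM in the other 2, and without it 11 members were called in WT, the calls of Nap1l4, Mkrn3 and Airn being lost (adjusted p = 0.0749, 0.0722 and 0.0582). Leaving out PA2 WT replicate 1 or PA3 WT replicate 2 also gave 11 calls.

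Of 33 further imprinted or neighbouring genes tested, 10 were higher and 4 lower in PA3 of WT, and 8 and 3 in HIRE1del. These are shares of 42.4% and 33.3%, near the 36.5% and 33.4% of all genes. Of the 33, Calcr and Dio3 passed the filter through 1 group alone. Without these 2 genes, 9 were higher and 4 lower in WT, and 7 and 3 in HIRE1del. Of the 21 tested makers and keepers, none was higher and 13 were lower in PA3 of each genotype (61.9%), where 17.4% of all genes were lower in WT and 14.7% in HIRE1del. Dnmt1 was at 708 ± 15.5 (SD, n = 3) CPM in PA2 WT and 630 ± 19.1 CPM in PA3 WT (adjusted p = 0.00979), and Hells, a chromatin remodeler needed for DNA methylation, fell by 0.44 on the log2 scale (adjusted p = 0.000399).

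The genotype comparison asks what the loss of HIRE1 changes. No member was called in PA2 (0 of 26, where 0.438% of all genes were called) or in PA3 (0 of 26, against 0.216%) by edgeR. At an unadjusted p under 0.05, 8 members stood out in PA2 (8.57% of all genes) and 5 in PA3 (9.73%), and 2, Usp29 and Plagl1, in the test of the difference between arches (5.52%). DESeq2 called 2 members in PA2, Peg3 and Magel2, none in PA3 and none for the difference between arches, and limma-voom called none in any of the 3. The replicate ranges of the genotypes were apart for 6 members in PA2 (13.2% of all genes) and 5 in PA3 (14.3%). None of 33 further imprinted genes and none of the 21 makers and keepers was called in either arch.

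The intervals give a range for the change of each of the 26 tested members. They are narrower than the F test implies, and untested members have none. In PA2 the 95% intervals of all 26 log2 fold changes lay within 1 in size, from -0.68 to 0.81, and those of 22 within 0.5. In PA3 25 of 26 lay within 1 and 22 within 0.5, and the upper bound of Asb4 was 1. The median absolute log2 fold change of the members was 0.11 in PA2 and 0.10 in PA3, against 0.08 and 0.08 over all genes tested.

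**Figure D5:**
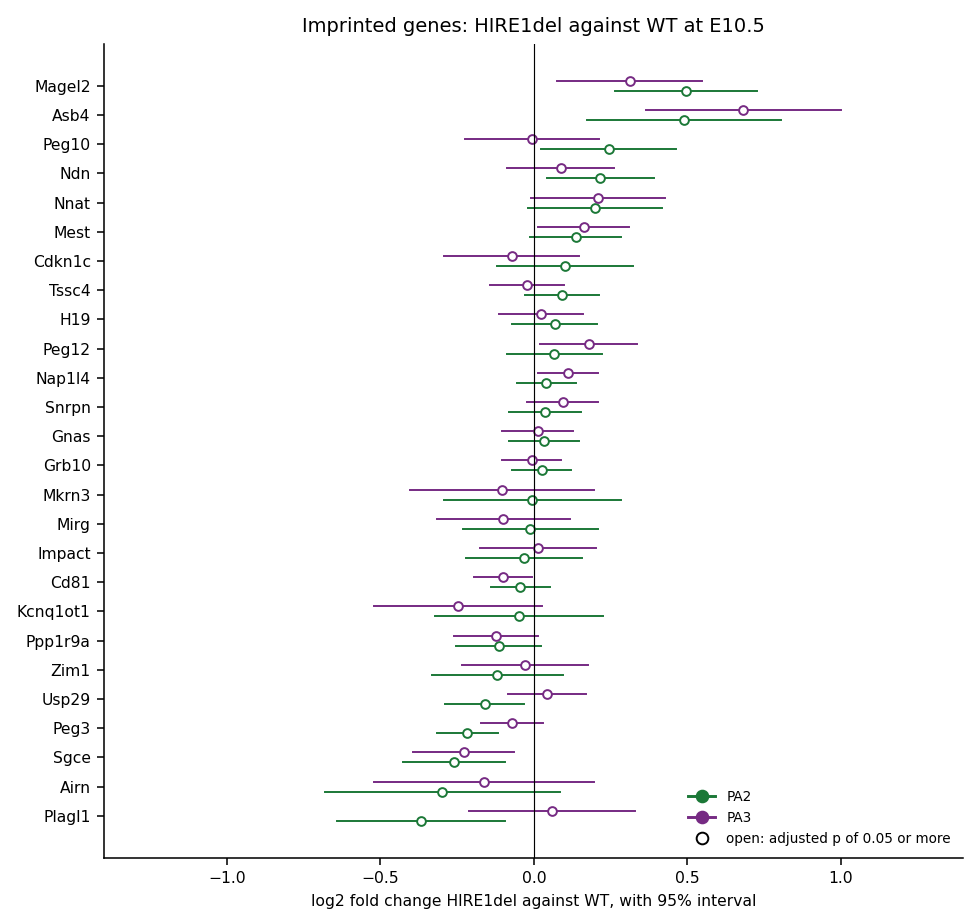
Log2 fold change of HIRE1del against WT at E10.5 for the 26 tested imprinted genes, with 95% intervals, in PA2 (green) and PA3 (purple). All points are open, and the changes lie between -0.37 (Plagl1 in PA2) and 0.68 (Asb4 in PA3).

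The members with the smallest p-values are given for their values. Peg3 was at 1314, 1352 and 1375 CPM in PA2 WT and 1115, 1231 and 1130 CPM in PA2 HIRE1del. The ranges were apart, with a log2 fold change of -0.22 ± 0.05 and an adjusted p of 0.116 by edgeR and 0.00203 by DESeq2. In PA3 Peg3 was at 1483 to 1610 CPM in WT and 1455 to 1498 CPM in HIRE1del (adjusted p = 0.697).

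Magel2 was at 45.1, 49 and 51.6 CPM in PA2 WT and 67.3, 82.4 and 55.8 CPM in PA2 HIRE1del. All HIRE1del libraries were above all WT libraries, with replicate 3 closest to WT. The difference was 1.41-fold (log2 fold change 0.50 ± 0.12, adjusted p = 0.124 by edgeR and 0.00628 by DESeq2), and without replicate 3 of PA2 HIRE1del Magel2 was called by edgeR (log2 fold change 0.62, adjusted p = 0.0187). In PA3 it was 1.24-fold higher with ranges apart (adjusted p = 0.437).

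Chromosome 6, which holds HIRE1, also holds the members Asb4, Mest, Peg10, Sgce and Ppp1r9a, and none of them was called for genotype. A part of their position in their levels was not tested. Asb4 was at 59.1, 47.1 and 73.3 CPM in PA3 WT and 94.2, 87 and 107 CPM in PA3 HIRE1del, and at 73.4, 58 and 59.9 CPM in PA2 WT and 71.5, 89.7 and 107 CPM in PA2 HIRE1del. The ranges were apart in PA3 and overlapped in PA2. The log2 fold changes were 0.68 ± 0.16 and 0.49 ± 0.16 (adjusted p = 0.179 and 0.403). Sgce, in the same domain, had log2 fold changes of -0.26 ± 0.09 in PA2 and -0.23 ± 0.08 in PA3 with ranges apart in both arches (adjusted p = 0.398 and 0.413).

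The rows left out of the tests were listed at low counts in the dissected arches too. Rtl1, listed at 0 in the sorted crest, had 9 to 27 counts per library here. Dlk1 was listed at 0 in 11 of the 12 libraries and at 1 in the other, replicate 3 of PA3 HIRE1del. Rian was listed at 0 in 9 libraries and at 10, 4 and 4 in the others, and Meg3 at 1 to 10. Mirg was at 30.7 to 37 CPM in PA2 and 34.5 to 48.5 CPM in PA3, and Mest shared its exonic overlap with Copg2, which had 15375 to 23532 counts here.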

How the data were processed

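The values are raw counts per gene, made and deposited by the authors without scaling. Per the study's methods, reads were aligned to GRCm38 (mm10) with QuasR and counted over exons of UCSC known genes on a single strand, the reverse of the gene's own. The labels name both an unstranded TruSeq kit and a total RNA kit, so overlaps between strands are named. Beside those of Tssc4 and Mest given above, Usp29 shares 2582 exonic bases with Zim3 on the opposite strand. Kcnq1ot1 shares 121 with Kcnq1, Cd81 shares 104 with R74862, and Rtl1 shares bases with microRNA hairpins. In the stage series Zim3 averaged 0.2 counts, Kcnq1 7.4 and R74862 355.2, and in the genotype series 79.2, 35.3 and 190.8. Stage libraries were single-end and genotype libraries paired-end, and the 2 tables were fitted separately. The submitters' processing notes name bcl2fastq 2.17 and 2.20.

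In R 4.3.3 with edgeR 4.0.16, a filter of 1 CPM in 2 or more libraries left 14383 genes (genotype) and 13438 (stage). Each table was scaled by TMM and fitted with a mean per group. Calls needed an adjusted p under 0.05 (two-sided quasi-likelihood test, Benjamini-Hochberg over all genes kept). The SE is the log2 fold change divided by the root of F. The 95% intervals span 1.96 SE either side, a normal quantile that makes them narrower than the F test implies. CPM values use TMM-scaled totals. Ranges are apart when no library of a group lies within the other group's range. Leaving genes that passed the filter through 1 group alone out of the stage counts was chosen after seeing the data. All 34 members are named. The members, lists and tests were chosen with earlier results of these data known. Totals of 25.8 to 49.1 M make 3 counts equal to 0.0612 to 0.116 CPM. Positions are from GENCODE M21 and sequences from RefSeq (GRCm38.p6). The code was tested on simulated data.

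Alternatives were DESeq2 1.42.0 (size factors, test), limma 3.58.1 voom, total counts, other filters, only the compared libraries, replicate blocks, and leaving out each library. The labels do not say whether libraries of PA2 and PA3 sharing a number share embryos. Their deviations from the group means correlated (WT r = 0.382, 0.23 and 0.248, HIRE1del r = 0.213, 0.284 and 0.342), and they were also fitted as pairs.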

Additional observations from a re-analysis of the deposited data

How the results depend on the processing

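The counts of members called stayed within 1.5 times their reported values under every alternative but 2, both for HIRE1del against WT in PA2, where DESeq2 called 2 members and the fit without PA2 HIRE1del replicate 3 called 1, in place of 0. The cause was not tested. No direction reversed for any called member. The stage counts here are over all 29 members tested, 26, 25 and 27 of which were called, and include Rasgrf1, Ascl2 and Slc22a18, which passed the filter through E14.5 alone. Leaving out each library gave 26 to 27 calls for E12.5 against E10.5, 24 to 26 for E14.5 against E12.5, 26 to 27 for E14.5 against E10.5, 11 to 14 for PA3 against PA2 in WT, 13 in each fit for HIRE1del, and 0 to 1 and 0 for the genotype in PA2 and PA3. The other settings gave 23 to 27, 21 to 27, 23 to 29, 14 to 16, 13 to 15, 0 to 2 and 0, and the lowest stage counts came from a filter of 1 CPM in every library, which tests fewer members. Of the single-gene calls, 8 were lost under 1 or more alternatives (24 pairs of a call and an alternative), those of Cdkn1c, Nap1l4, Mkrn3, Mirg and Airn for PA3 against PA2 in WT, Ndn for the same in HIRE1del, Ppp1r9a for E14.5 against E12.5 and Plagl1 for E14.5 against E10.5. Cdkn1c lost its arch call without any 1 of 5 libraries (adjusted p 0.0558 to 0.118). With the replicate number as a block, 0 members were called for genotype in PA2, PA3 and the difference between arches, 14 and 14 between arches in WT and HIRE1del, and 27, 26 and 27 in the 3 stage comparisons. With libraries paired within genotype the arch counts were 14 and 15. Scaling by total counts alone shifted the median gene by -0.132 on the log2 scale for E14.5 against E12.5, which is the only shift above 0.1. The rows of Dlk1, Rtl1, Rian, Meg3 and Phlda2 had too few counts to test in either table, and why was not tested. The Meg3 row also lay below that of Mir1906-1, a hairpin in an exon of Meg3.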
